A study of Drosophila melanogaster with 4 samples.

Results

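The chromatin around wingless (wg), the founding Wnt gene of the fly, was examined for H3K9ac, acetylation of histone H3 at lysine 9, a mark of active promoters and enhancers. The window runs on chromosome arm 2L from 7.25 to 7.37 Mb in FlyBase release 5 of the genome, a stretch of 120 kb that was chosen to hold Wnt4, wg, Wnt6 and Wnt10 in this order. Its members are the regions of significant H3K9ac enrichment, termed clusters below, that overlap this stretch by at least 1 bp. They number 12 of 8495 clusters in the list of ChIP replicate 1, 12 of 6772 in the list of ChIP replicate 2 and 20 of 12322 in the series-wide list, or 44 of 27589 over the 3 lists. On 2L as a whole the lists hold 1567, 1203 and 2299 clusters in the same order. Whole Oregon-R embryos, of wild-type genotype and collected at 14 to 16 h of development, gave 2 ChIP-seq samples with an H3K9ac antibody and 2 input samples of chromatin with no antibody. Per the labels, each of the inputs served as input for the list of one ChIP replicate, and their own values were not analysed here. Separate collections of embryos are not stated for the replicates, whose spread may thus be technical. Because whole embryos were used, a mark in few cells and a weak mark in many cells cannot be told apart.

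Wnt proteins are secreted lipid-modified ligands that bind Frizzled receptors together with the co-receptor Arrow. In the canonical pathway this binding stabilises Armadillo, the fly beta-catenin, which then acts with the factor Pangolin on target genes. In the embryo wg is a segment polarity gene that patterns the epidermis of each segment, and it also acts in the midgut, the heart and the nervous system. Wnt4, Wnt6 and Wnt10 code for other ligands of the family, and Wnt6 and Wnt10 lie beside wg in other insects as well. The RefSeq gene table, which belongs to Release 6 of the genome, lists all 4 Wnt genes and gives the order CG13786, Wnt4, CG31909, wg, lncRNA:CR45304, Wnt6, Wnt10. It places CG31909 inside the span of Wnt4 and asRNA:CR44063 inside the span of Wnt10. Coordinates were not carried between releases, so the single gene position used is the start of wg, near 7307161, which was given with the window. In the Release 6 table the end of Wnt10 has a coordinate beyond the right edge of the window. The ends of the genes in release 5 were not at hand, so it was not checked whether the window takes in the whole of Wnt10. Clusters are placed relative to the wg start, with downstream meaning toward higher coordinates, and no cluster is assigned to another gene.

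H3K9ac clusters lay densely over the window, with higher coverage upstream of the wg start than downstream of it in each list. Past the start, the next cluster began after 1693 bp in replicate 1 and after 2583 bp in replicate 2. Clusters covered 46.6 kb of the window in replicate 1, 25.1 kb in replicate 2 and 65.7 kb series-wide. That is 38.8%, 20.9% and 54.8% of its bases. The replicate mean was 29.9% ± 12.7 (SD, n = 2), with replicate 1 far above replicate 2. On the rest of 2L the same lists covered 20.0%, 13.4% and 27.5% of bases, with a replicate mean of 16.7% ± 4.64 (SD, n = 2). Within each list the window was thus the more covered, by a factor of 1.95 in replicate 1, 1.56 in replicate 2 and 1.99 series-wide. With clusters whose score reached the median of their whole list alone, the factor was 1.60 in replicate 1 and 0.896 in replicate 2, so the higher coverage did not hold for stronger clusters in replicate 2. The difference of the means is about as large as the SD of the window value between replicates. That SD is not the spread of the difference, since window and rest are paired within each list. Besides, 2 replicates are too few for an exact permutation test to call a difference. No test was made, and the values describe these lists. In score these clusters were not the leading ones of the arm. At percentile 90 or above among the 2L clusters of their list stood 0 of 12 in each replicate and 0 of 20 series-wide. On the rest of 2L 10.1% of the clusters did in each list, a share that the rank itself sets. The series-wide list belongs to the set of both replicates, so the lists are not independent.

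**Figure D1:**
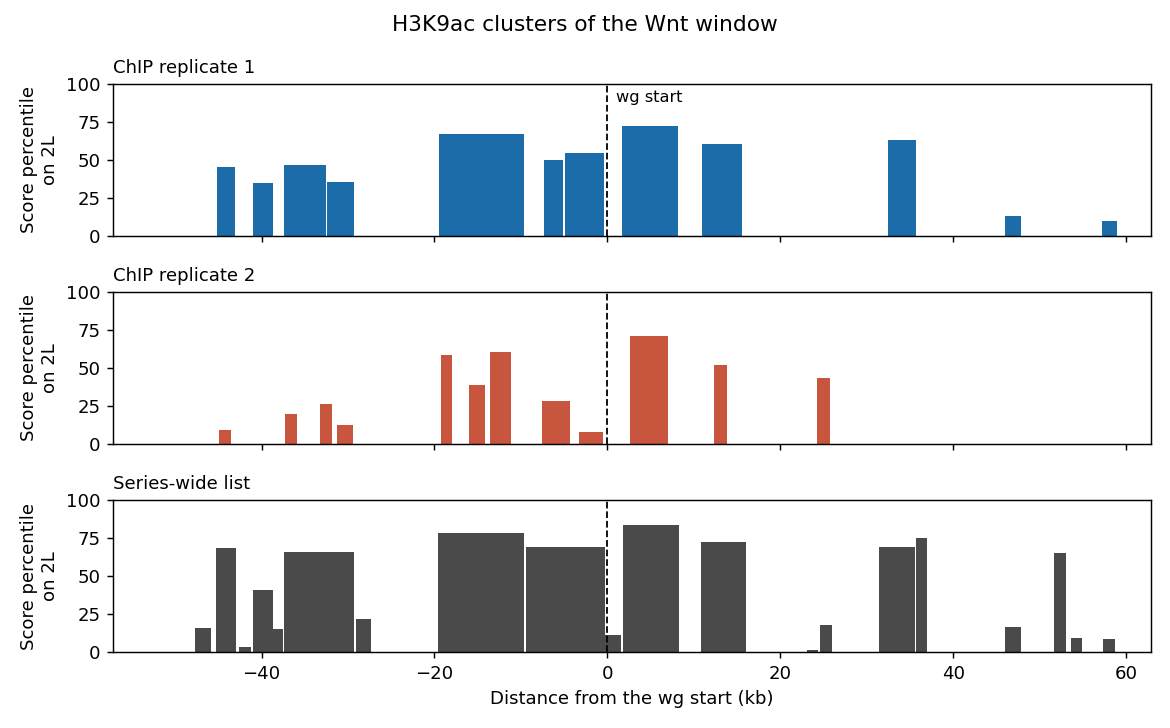
H3K9ac clusters of the Wnt window in the 3 lists. The horizontal axis is the distance from the wg start in kb (dashed line at 0), each bar spans a cluster, and its height is the percentile of its score among the 2L clusters of the same list. The tallest bar of each list lies just past the wg start, at 72.1 in replicate 1, 71.1 in replicate 2 and 83.6 series-wide, and replicate 2 has no bar beyond 25.8 kb.

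The highest-scoring H3K9ac cluster of the window in all 3 lists lay just downstream of the wg start position. In replicate 1 it ran from 7308854 to 7315389, a width of 6536 bp, with a score of 0.860 that ranked 437 of the 1567 clusters on 2L. In replicate 2 it ran from 7309744 to 7314145, a width of 4402 bp, with a score of 0.967 that ranked 348 of 1203. In the series-wide list it ran from 7308948 to 7315454, a width of 6507 bp, with a score of 0.796 that ranked 377 of 2299. Scores are the authors' own values, with a scale and a zero that are not given, so they are compared by rank within a list alone. By that measure the cluster past the wg start was above the middle of 2L in each of the lists and below percentile 90.

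The wg start itself lay in a space between clusters in both replicates. In replicate 1 the cluster before it ended 433 bp short of the start and the next began 1693 bp after it, a space of 2125 bp. In replicate 2 these distances were 491 bp and 2583 bp, a space of 3073 bp. The series-wide list filled most of that space with a cluster at 7306936 to 7308696, which has no counterpart in either replicate. Its score of 0.324 stands at percentile 11.4 of 2L, among the lowest of the list. Whether the wg start counts as covered therefore differs between the series-wide list and both replicates. Since the start is known as a near position alone, a start 433 bp farther upstream would already lie in a cluster of replicate 1.

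Upstream of the start, 2 broad stretches were marked. The nearer one was a run that the series-wide list drew almost without a break from 7287590 to 7315454, across the wg start. Run here means clusters with gaps of at most 1000 bp between them. It was 27.9 kb long, held 4 clusters and was covered to 97.9%. Of the other 1630 such runs on 2L in that list, 16 were longer, while their median length was 2.43 kb and the longest had 59.5 kb. The replicates broke the same stretch into pieces. In replicate 1 the longest run of the window had 9.79 kb, and 78 of the 1245 runs on the rest of 2L were longer. In replicate 2 it had 4.925 kb, and 150 of 1012 were longer. Each of these is the longest run of the window in its list, set against all runs elsewhere. Its rank is therefore high by selection, and the longest runs of equal tiles were not compared. Replicate 1 had a cluster of 9.79 kb at 7287705 to 7297496, the 25th widest of 1567 on 2L, followed by clusters at 7299835 to 7301999 and 7302231 to 7306728. Replicate 2 had 3 clusters in place of the widest one, at 7287926 to 7289247, 7291111 to 7292993 and 7293617 to 7296035, which together covered 57.4% of it. It then had clusters at 7299616 to 7302818 and 7303846 to 7306670. Both replicates were thus marked along the run, in 4 clusters of replicate 1 and in 6 of replicate 2.

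The farther upstream stretch formed a run of 20.4 kb in the series-wide list, from 7259418 to 7279838, with 7 clusters. By gene order this side of wg is the side of Wnt4. The widest cluster of the run, at 7269712 to 7277878, had 8167 bp and a score at percentile 65.9. Replicate 1 covered 97.8% of that cluster with 2 clusters, at percentiles 46.9 and 35.4, and replicate 2 covered 57.2% of it with 3 clusters, at percentiles 19.7, 26.6 and 12.3. Both replicates also had a cluster within the series-wide cluster at 7261848 to 7264230, which stood at percentile 68.1. The replicate clusters there stood at percentile 45.3 in replicate 1 and 9.52 in replicate 2. A cluster of replicate 1 at 7266188 to 7268457 had no partner in replicate 2. The remaining 4 series-wide clusters of this run, at 7259418, 7264574, 7268474 and 7278072 by their starts, overlapped neither replicate and stood at percentiles 15.9, 3.72, 15.4 and 21.9. Replicate scores in this stretch lay below the middle of 2L. They stood at percentiles 34.7 to 46.9 in replicate 1 and, for the 4 clusters of replicate 2, at 26.6 or lower.

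Past the cluster downstream of the wg start, coverage was lower than around the start in each list, and the replicates parted. A cluster of the series-wide list at 7318054 to 7323260, with a width of 5207 bp and a score at percentile 72.5, was the last to be found in both replicates. Replicate 1 covered 88.5% of it and replicate 2 covered 28.0%. Farther on, toward Wnt6 and Wnt10 in the gene order, replicate 2 held a single cluster at 7331474 to 7332976, at percentile 43.3, which replicate 1 did not have. Replicate 1 in turn held 3 clusters that replicate 2 did not have. They lay at 7339651 to 7342814, at percentile 63.0, at 7353121 to 7354970, at percentile 13.0, and at 7364443 to 7366070, at percentile 9.73. The series-wide list held 8 clusters in that part. Of these, 3 overlapped replicate 1 alone, 2 overlapped replicate 2 alone, and 3 overlapped neither. The last 3 included the cluster at 7342876 to 7344198, whose percentile of 74.97 is exceeded in that list by those at 7308948 and 7287590 alone within the window, although it was 1323 bp wide and absent from both replicates.

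The sides of the wg start differed in coverage within each list. Downstream of it, over 62.8 kb, coverage was 28.3% in replicate 1, 11.7% in replicate 2 and 43.5% series-wide. Upstream, over 57.2 kb, it was 50.4%, 31.0% and 67.1% in the same order. In bins of 10 kb, the bin that holds the start, which runs from 7.16 kb before to 2.84 kb after it, was covered to 76.4% in replicate 1, 59.0% in replicate 2 and 96.5% series-wide. The replicate mean of this bin was 67.7% ± 12.3 (SD, n = 2). Past the start, the first 1693 bp in replicate 1 and the first 2583 bp in replicate 2 held no cluster. The start bin was the highest of the 12 bins in the replicate mean and in replicate 2. In replicate 1 the bins from 37.2 kb and from 17.2 kb upstream were higher, at 77.3% and 76.6%, and in the series-wide list the second of these was, at 97.6%. The bins on either side had means of 61.7% ± 21.0 upstream and 59.5% ± 19.1 downstream. These SDs are not the spread of a difference paired within replicates. The upstream bin had 76.6% in replicate 1 and 46.9% in replicate 2, above the start bin in replicate 1 alone. The downstream bin had 73.0% and 46.0%, below the start bin in both replicates. These differences were not tested. The bin from 37.2 to 27.2 kb upstream had 61.2% ± 22.8. From 12.8 kb downstream on, the 5 remaining bins had means between 8.14% and 18.6%, and replicate 2 had no covered base in the last 3 of them. In replicate 1 these bins had 3.49% to 28.2%, on both sides of the 20.0% of the rest of 2L. In the series-wide list they had 29.5% to 41.3%, all 5 above the 27.5% of the rest of 2L. Replicate 1 was the more covered in 10 of the 12 bins, replicate 2 in 1, and both were at 0 in the first bin.

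**Figure D2:**
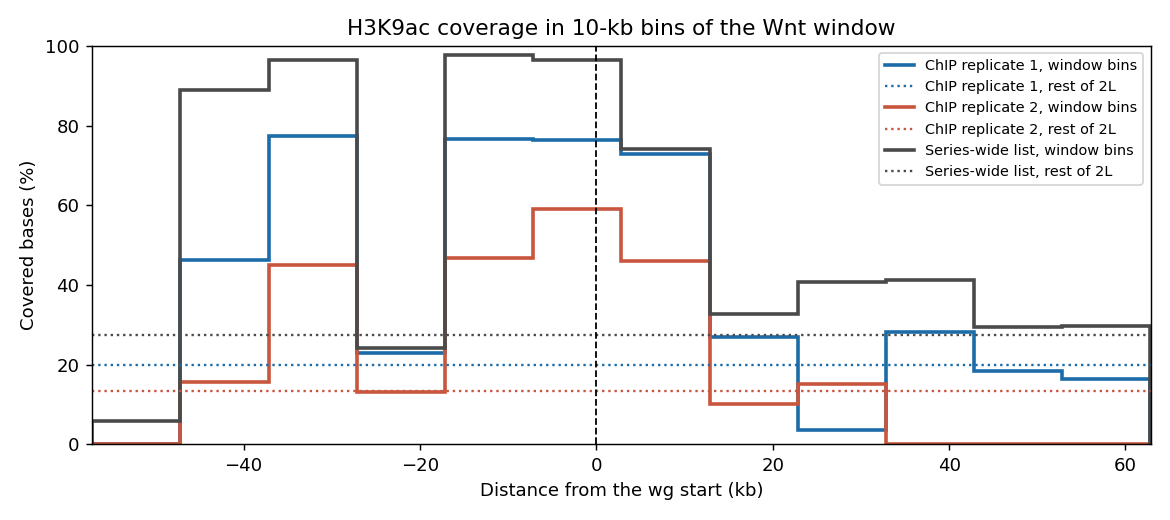
Share of bases covered by H3K9ac clusters in 10-kb bins of the window, against the distance from the wg start in kb (dashed line at 0). Solid steps are the window bins of each list and dotted lines are the coverage of the rest of 2L in the same list. The bin from 7.16 kb before to 2.84 kb after the start reaches 76.4% in replicate 1 and 59.0% in replicate 2. The start itself lies in no cluster of either replicate. Replicate 2 is at 0 in the last 3 bins.

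Cluster-free stretches of at least 5 kb numbered 5 in replicate 1, 6 in replicate 2 and 5 series-wide. The sequence between the upstream stretches was free of clusters in all lists from 7279839 to 7287589, a length of 7.75 kb. No list had a cluster from the left edge to 7259417, or over 9.42 kb. Downstream, stretches free in all lists lay at 7323261 to 7330283, at 7333115 to 7338575 and at 7344199 to 7353120, with 7.02, 5.46 and 8.92 kb. Together these 5 stretches made up 38.6 kb. The longest free stretch of a single list was 37.0 kb in replicate 2, from 7332977 to the right edge of the window, and it continued beyond the edge to 41.6 kb. In replicate 1 the longest was 16.9 kb, at 7322702 to 7339650, and in the series-wide list it was the 9.42 kb at the left edge. The rest of 2L was cut into 190 tiles of the window's length, with gaps cut at their edges in the same way. Their longest free stretch had a median of 40740.5, 48709 and 29609.5 bp for replicate 1, replicate 2 and the series-wide list. It was shorter than that of the window in 14, 56 and 5 of these tiles. Among spaces wholly inside the window, the median between neighbouring clusters was 2338, 3073 and 343 bp in the same order. On the rest of 2L, with spaces of any length, it was 4101, 5812 and 2731 bp. Spaces that cross the window edges are in neither median, which favours short spaces in the window. They had 12.7 and 8.40 kb in replicate 1 and 38.6 and 41.6 kb in replicate 2.

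Within single replicates the free stretches ran wider. Replicate 1 was free from the left edge to 7261956 and at 7277871 to 7287704, 7342815 to 7353120 and 7354971 to 7364442. Replicate 2 was free from the left edge to 7262235 and at 7263625 to 7269837, 7277796 to 7287925, 7314146 to 7319548 and 7321008 to 7331473. Just outside the window, the nearest clusters on the left were at 7247315 to 7249217 in replicate 1, at 7221800 to 7223645 in replicate 2 and at 7247316 to 7249692 series-wide. On the right they were at 7374473 to 7376047, 7374542 to 7375912 and 7370244 to 7371262. The right edge therefore passes 244 bp short of a series-wide cluster and the left edge 308 bp past another, and neither is counted.

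Against equal tiles of 2L, the window stood in the upper part of the distribution. The tiles, counted outward from the window, are the 190 complete ones named above. Of these, 21 were covered more than the window in replicate 1, 44 in replicate 2 and 16 series-wide. The median of the other tiles was 18.5%, 11.8% and 26.3%. The 2 tiles that flank the window were less covered than it in each list. The right one had 12.03%, 8.73% and 17.5% and the left one 18.8%, 9.33% and 24.2% in replicate 1, replicate 2 and the series-wide list. By number of clusters, 38, 14 and 17 of the other tiles held more than the window's 12, 12 and 20, and their medians were 8, 6 and 12.5 clusters. Per megabase the window had 100.0 clusters in each replicate and 167 series-wide, against 67.9, 52.0 and 99.6 on the rest of the arm. The ratio of these densities was 1.70 ± 0.318 over the replicates (SD, n = 2).

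**Figure D3:**
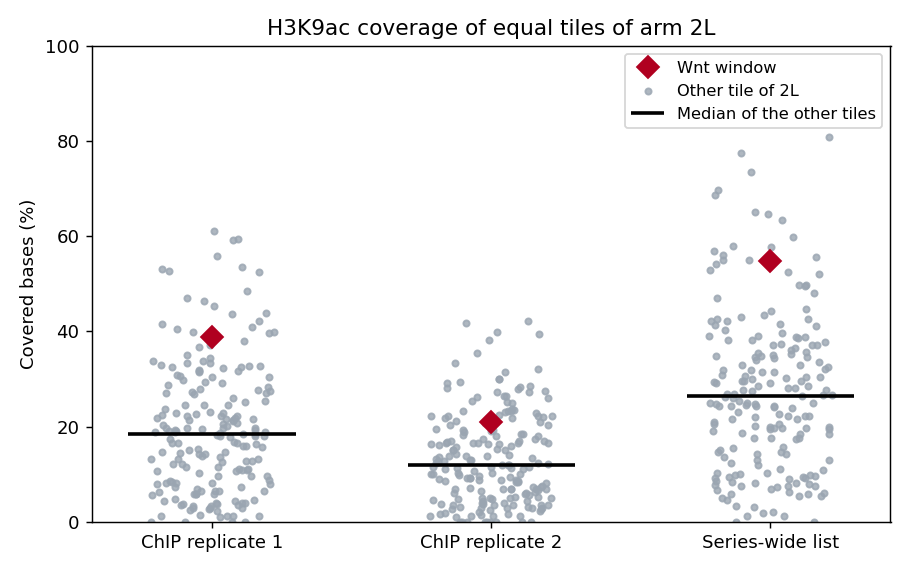
Share of bases covered by H3K9ac clusters in the Wnt window (diamond) and in 190 other tiles of the same length on 2L (points, spread sideways for display), for each list. Bars are medians of the other tiles. The window lies at 38.8%, 20.9% and 54.8%, above the medians of 18.5%, 11.8% and 26.3%.

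Most clusters of the window had middling or low scores. The median score percentile of the window clusters among those on 2L was 48.3 in replicate 1, 33.5 in replicate 2 and 31.4 series-wide. Their range was 9.73 to 72.1, 7.69 to 71.1 and 1.20 to 83.6. At percentile 90 or above stood 0 of 12, 0 of 12 and 0 of 20 window clusters, against 10.1% on the rest of the arm. With 12 clusters a count of 0 allows a share of up to 26.5%, and with 20 up to 16.8% (upper ends of 95% exact binomial intervals, which cover counting error alone). Clusters whose score reached the median of the whole list numbered 4 of 12 in replicate 1, 3 of 12 in replicate 2 and 9 of 20 series-wide. The shares on the rest of 2L were 45.3%, 42.7% and 43.4%. The exact intervals of the window shares were 9.92 to 65.1%, 5.49 to 57.2% and 23.1 to 68.5%. These intervals treat neighbouring clusters as independent, which they may not be, so they are no test of a difference. With those stronger clusters alone, the ratio of window to rest cluster densities was 1.08 in replicate 1 and 1.13 in replicate 2.

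Broad clusters of the window were set beside equally broad ones of the arm. Clusters at least 8 kb wide numbered 1 of 12 in replicate 1, 0 of 12 in replicate 2 and 3 of 20 series-wide, against 3.02%, 1.09% and 3.64% on the rest of 2L. The series-wide ones had 9933, 9075 and 8167 bp. A limit of 4 kb, chosen after the values were seen, left 5 window clusters in replicate 1, with score percentiles from 46.9 to 72.1 and a median of 60.7. The 258 clusters of that width on the rest of 2L had a median of 76.3 and a middle range of 63.9 to 87.0 (between the quartiles). In the series-wide list 6 window clusters passed the limit, with a median percentile of 70.8, against 80.8 for the 350 others. In replicate 2 a single window cluster did, at 71.1, against a median of 78.3 for the 141 others. The broad clusters of the window thus scored below the median of equally broad clusters of the arm in replicate 1 and replicate 2, while in the series-wide list the cluster past the wg start, at 83.6, scored above it.

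**Figure D4:**
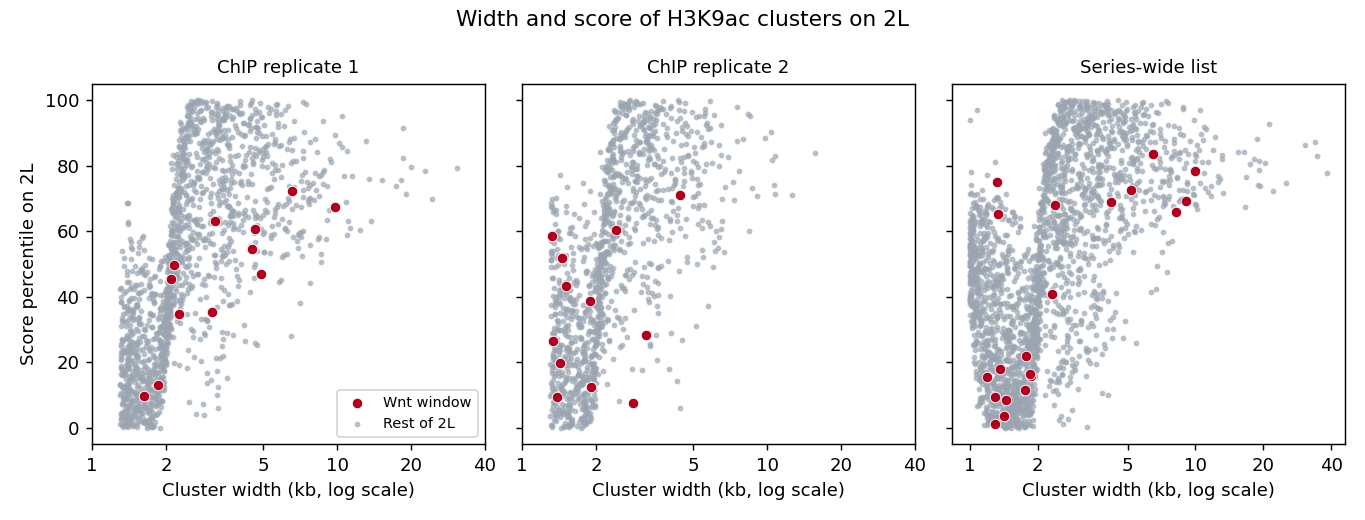
Width in kb (log scale) and score percentile on 2L of each H3K9ac cluster on 2L, in the window (large points) and on the rest of the arm (small points), for each list. Window clusters reach at most 72.1 in replicate 1, 71.1 in replicate 2 and 83.6 series-wide, and the 5 of replicate 1 that are at least 4 kb wide lie below the median of 76.3 for such clusters on the rest of 2L.

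Median widths gave no common direction. They were 3129 bp in the window and 2227 bp on the rest of 2L in replicate 1, 1693 bp and 2131 bp in replicate 2, and 1804 bp and 2005 bp in the series-wide list. Window clusters were thus wider than the rest in replicate 1 alone. The replicate mean of the window medians was 2411 bp ± 1015 (SD, n = 2), a spread that takes in the value of 2179 bp ± 67.9 for the rest.

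The replicates shared window clusters about as often as clusters elsewhere on the arm. In replicate 2, 11 of 12 window clusters, or 91.7% (95% exact binomial interval 61.5 to 99.8%), overlapped a replicate 1 cluster, against 89.5% on the rest of 2L. In replicate 1, 8 of 12, or 66.7% (34.9 to 90.1%), overlapped a replicate 2 cluster, against 63.5%. All but 1 of the replicate 2 clusters thus recurred, the exception being that at 7331474. The 4 clusters that replicate 1 held alone were those at 7266188, 7339651, 7353121 and 7364443. Measured in bases, the replicates shared 23.0 kb of the 48.7 kb that either covered, a Jaccard index of 47.2%, against 56.5% on the rest of 2L. The shared bases were 91.7% of those of replicate 2 and 49.3% of those of replicate 1, against 89.9% and 60.4% on the rest of the arm.

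The replicates divided the marked stretches of the window differently. In replicate 1, 4 of the 12 window clusters overlapped 2 or more clusters of replicate 2, or 33.3%, against 86 of 1555, or 5.53%, on the rest of 2L. In replicate 2, 2 of the 12 overlapped 2 clusters of replicate 1, or 16.7%, against 2.69%. An overlap of any length of at least 1 bp was counted. Such multiple overlaps were more frequent among wide clusters: of replicate 1 clusters at least 3 kb wide, a limit set after the values were seen, 4 of 7 in the window and 78 of 463 on the rest of 2L, or 16.8%, had them. At a limit of 4 kb these were 3 of 5 in the window and 72 of 258 on the rest of 2L, or 27.9%. These counts are small and share the same stretches, and no test was made. In all, 3 pairs of clusters in the window overlapped just each other, against 854 on the rest of 2L. The median distance was 890 bp between their starts and 1244 bp between their ends, against 116 bp and 128 bp for pairs on the rest of the arm. Replicate 1 had the wider cluster in 3 of the 3 pairs, and in 78.9% of those elsewhere.

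In the series-wide list, clusters that each replicate overlapped by at least 1 bp made up most of the covered bases by their whole widths. Of its 20 clusters, 6 overlapped both, or 30.0% (11.9 to 54.3%), against 40.7% on the rest of 2L. These 6 had widths from 2383 to 9933 bp and a median of 7337 bp, and stood at percentiles from 65.9 to 83.6. Their whole widths made up 41272 bp of the 65706 bp that the list covered in the window. This share of bases was not computed for the rest of 2L, so it cannot be called particular to the window. The bases of the window that both replicates covered came to less, 23.0 kb. A further 4 overlapped replicate 1 alone and 2 overlapped replicate 2 alone, or 20.0% and 10.0%, against 22.5% and 4.48%. The 8 that overlapped neither, or 40.0% (19.1 to 63.9%), against 32.4% on the rest of 2L, were 1195 to 1871 bp wide. Their median percentile was 15.7, with the clusters at 7342876 and 7358892 as exceptions at 74.97 and 65.1. The series-wide list belongs to the set of these replicates, and its overlap with them is no independent check.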

How the data were processed

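ChIP-seq of H3K9ac was carried out on embryos of the strain Oregon-R, and the authors deposited 3 lists of enriched regions: 1 for each ChIP replicate and 1, called series-wide, for the set of both. Positions are those of FlyBase release 5, per the file headers. Each region carries a score deposited by the authors. The definition of the score, the aligner, the caller and its threshold, and how replicates were combined: not given in the sources used here. Read depth is likewise unknown, and intervals cover the counting of clusters alone. Input values were not analysed here.

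Clusters were merged before covered bases were counted. Scores were turned into percentiles among the 2L clusters of a list. A cluster belonged to the window if it overlapped it by at least 1 bp. Tiles have the window's length, and bins have 10 kb. Gaps were cut at the window edges, except for the median space between clusters, which took whole spaces only. Named regions are the clusters that overlap the window, the stretches of at least 5 kb free of clusters, and the nearest clusters outside. Members and comparisons were chosen with earlier results of these data known. No test across features was made, since members share 2 libraries. Sequences of promoters and proteins were not used here. The interval code was tested on simulated data. Alternatives were stronger clusters, other window limits, other stretches to compare with, a 50% overlap, midpoints, a single replicate and the series-wide list. Computations ran in Python 3.11.15 with scipy 1.17.1, pandas 2.3.3 and numpy 2.4.6, and figures in matplotlib 3.10.9.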

Additional observations from a re-analysis of the deposited data

How the results depend on the processing

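Over 8 results and 41 alternatives, 31 left the value within its spread between replicates or its exact interval and 10 moved it. None took a mean of the replicate ratios across 1. A spread from 2 replicates is wide and poorly known, so a value within it does not show that a result is stable. In replicate 2 alone, the coverage ratio fell to 0.896 with clusters at or above the list median. When clusters scoring under the list median were left out, window coverage was 13.4%, the ratio of window to rest coverage 1.25, the density ratio 1.10, the median width 3996 bp, the longest cluster-free stretch 46780 bp, and the share of replicate 2 clusters overlapped by replicate 1 100.0%, from 3 of 3 clusters. This setting leaves fewer clusters by construction. With the window narrowed by 20 kb on each side, the coverage ratio was 2.30 and the density ratio 2.06. The series-wide list gave a coverage of 54.8% and a longest free stretch of 9418 bp. For these 2 settings the cause was not tested. The ratios to the 1 Mb on each side of the window, 1.67 for coverage and 1.48 for density, were added after the data were seen and stayed within the spread.

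Leaving out either replicate gave coverage of 20.9 to 38.8%, coverage ratios of 1.56 to 1.95, density ratios of 1.47 to 1.92, median score percentiles of 33.5 to 48.3, median widths of 1693 to 3128.5 bp and longest free stretches of 16949 to 37024 bp. Since 2 values always lie within their own SD of the mean, these 12 settings are not in the counts above. No paired analysis was possible because the files used hold ChIP lists alone, so that ChIP and input could not be compared by replicate number. Window and rest were compared within each replicate, without a test. Limits set by read depth could not be measured.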
